A study of Mus musculus with 6 samples.

Results

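The genes described here are 7 transcription factor genes that are tied to effector Tregs and to Tregs resident in tissues: Prdm1, Bcl6, Rora, Pparg, Ahr, Maf and Nfil3. They are 7 of the 21887 protein-coding genes in a RefSeq table of GRCm38.p6, the assembly behind mm10. A region counted towards a gene when it overlapped the gene's span or the 10 kb on either side of it. After overlapping peaks of all libraries were merged, 70 of 64817 regions belonged to the 7 genes. Rora had 40 of these regions, Prdm1 11, Bcl6 8, Nfil3 6, Pparg 2, Ahr 2 and Maf 1.

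The data were ATAC-seq peak lists of Tregs from lymph nodes draining a B16.F10 melanoma, a transplantable mouse tumour line, collected on day 14 from mice injected subcutaneously with 300000 B16.F10 cells. ATAC-seq marks accessible chromatin by where Tn5 transposase can insert into it. The 3 WT libraries (replicates 2, 4 and 6) came from C57BL6 mice and the 3 KO libraries (replicates 1, 2 and 4) from il33-/- mice in the C57BL6 background, so the KO mice lacked the gene of the cytokine interleukin-33. Mice of both genotypes carried the tumour. The sort was for CD4+CD25+GITR+ cells, and the labels add Foxp3+. Nothing in the labels ties a replicate to a mouse of its own, so the p-values speak for these libraries, and the spread behind them may be technical. The WT libraries kept 12.9 to 15.2 M (mega) tags and the KO libraries 4.72 to 10.3 M, and the lists held 52836 to 55939 and 37266 to 42738 peaks. Every KO library was thus shallower than every WT library, and effects of depth and of genotype cannot be told apart. All 7 Treg markers had peaks in each of the 6 libraries, Foxp3 with 6, 6 and 6 in WT and 5, 5 and 4 in KO. Of the markers of other cells, Ms4a1 (B cells), Lyz2 and Csf1r (myeloid cells), Ncr1 (NK cells), Tyr and Dct (melanoma) had 0 peaks in each library. The melanoma markers Pmel, Mlana and Mitf had peaks in all 6, Pmel with 4, 4 and 3 in WT and 3, 3 and 3 in KO. Peaks at the marker lists summed per library to 15 to 19 in WT and 8 to 12 in KO for B cells, 4 to 6 and 3 for plasma cells, and 10 and 6 to 8 for myeloid cells. The sums were 5 to 6 and 2 to 3 for CD8 T and NK cells, 5 to 6 and 4 to 6 for ILC2 and Th2 cells, and 8 to 11 and 7 to 10 for melanoma, and their part in the results was not tested.

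As background, tissue Tregs arise through a stepwise programme in which activated Tregs take up factors that open cytokine, homing and repair genes. Prdm1 encodes Blimp-1, a zinc finger repressor of effector Tregs, and Bcl6 encodes the zinc finger repressor of the follicular programme, with which Blimp-1 is mutually antagonistic. Rora and Pparg encode the nuclear receptors RORα and PPARγ, known from skin and visceral fat Tregs. Ahr encodes the aryl hydrocarbon receptor, a ligand-activated factor of barrier tissues. Maf encodes c-Maf, a basic leucine zipper factor that promotes Il10, and Nfil3 encodes a basic leucine zipper repressor.

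The most upstream listed promoters of Prdm1, Bcl6 and Nfil3 overlapped a peak in every library. The only promoter listed for Rora overlapped a peak in none, and the most upstream one of Pparg in 1. RefSeq promoter windows, from 250 bases before to 50 after a listed start (build GRCm38.p6), were given for 5 of the 7 genes. The bases before the start are shown for the most upstream listed start of each, because 3 of the windows lay in a peak of all 6 libraries and the other two did not. Each is written 5′ to 3′ along the gene, with capitals for letters that match a searched motif on either strand.
Prdm1 (chr10:44458699-44458998 window, minus strand): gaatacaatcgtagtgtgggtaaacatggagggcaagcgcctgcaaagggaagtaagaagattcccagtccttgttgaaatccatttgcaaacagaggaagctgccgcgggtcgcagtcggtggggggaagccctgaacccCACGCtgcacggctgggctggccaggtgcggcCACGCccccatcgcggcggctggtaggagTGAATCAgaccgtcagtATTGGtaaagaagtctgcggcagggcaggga
Bcl6 (chr16:23988803-23989102 window, minus strand): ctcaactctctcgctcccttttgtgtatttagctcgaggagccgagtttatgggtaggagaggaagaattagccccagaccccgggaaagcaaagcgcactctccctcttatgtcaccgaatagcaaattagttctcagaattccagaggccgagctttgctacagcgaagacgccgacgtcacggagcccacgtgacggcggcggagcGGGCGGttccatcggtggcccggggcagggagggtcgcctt
Nfil3 (chr13:52980990-52981289 window, minus strand): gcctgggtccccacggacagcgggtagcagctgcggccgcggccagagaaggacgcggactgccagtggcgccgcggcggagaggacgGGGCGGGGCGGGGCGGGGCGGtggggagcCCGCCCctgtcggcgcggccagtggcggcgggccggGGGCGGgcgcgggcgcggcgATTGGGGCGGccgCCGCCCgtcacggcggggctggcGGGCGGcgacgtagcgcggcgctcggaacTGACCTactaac
Rora (chr9:68653536-68653835 window, plus strand): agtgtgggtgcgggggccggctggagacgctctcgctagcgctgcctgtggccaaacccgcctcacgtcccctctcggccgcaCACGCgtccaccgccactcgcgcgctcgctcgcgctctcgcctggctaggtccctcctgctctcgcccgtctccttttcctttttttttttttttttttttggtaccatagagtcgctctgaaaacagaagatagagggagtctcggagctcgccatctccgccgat
Pparg (chr6:115360894-115361193 window, plus strand): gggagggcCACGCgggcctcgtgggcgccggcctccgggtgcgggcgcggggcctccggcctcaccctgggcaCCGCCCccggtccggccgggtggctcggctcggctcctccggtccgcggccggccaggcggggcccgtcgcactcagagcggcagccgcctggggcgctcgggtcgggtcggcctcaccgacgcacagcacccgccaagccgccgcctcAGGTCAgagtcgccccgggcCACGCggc

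Over the genome, 48.3% of 21263 promoter windows of protein-coding genes overlapped a region called in all 6 libraries. The whole Prdm1 window lay inside the peak of each library, and the summits were -22 to 28 bp from the start. The Bcl6 window was likewise covered in each library, with summits at -73, -73 and -82 bp in WT and -154, -75 and -64 bp in KO. The other window listed for Bcl6 (chr16:23981234-23981533) had a peak in 0 libraries, and the nearest peak lay 1.02 kb from its start. Of the Nfil3 window, 65.7%, 100% and 95.7% were covered in WT and 63.0%, 77.7% and 76.7% in KO. Its WT summits lay at -441, -453 and -280 bp and its KO summits at -97, -107 and -102 bp. The called stretches there were longer in WT (983, 935 and 1093 bp) than in KO (390, 503 and 596 bp). The difference in summits was not tested and is given without a share over other promoters. At the listed Rora start no library had a peak, and the nearest peak of any library was 35.7 kb away. For Pparg only the WT replicate 4 peak reached into the window, covering 31.3% of it.

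The windows also differed in base composition and motifs. The Nfil3 window had a GC content of 81.7% and the Pparg window 80.3%, which 99.4% and 99.1% of the 32851 windows in the table fell below. Bcl6 (62.7%), Rora (60.3%) and Prdm1 (59.7%) were nearer the median of 52.7%. The motifs searched on both strands were TGANTCA (AP-1 and BATF), GCGTG (AHR core), AGGTCA (half-site of ROR and PPAR), TTATGTAA (NFIL3), TGTGGT (RUNX), CCGGAAG (ETS), GGGCGG (GC box), CCAAT (NF-Y) and TATAAA (the motif bound by TBP). In that order they occurred in 7.81%, 32.4%, 16.3%, 0.938%, 16.8%, 8.86%, 35.7%, 37.4% and 13.6% of all windows. N stood for any base, so TGANTCA is a loose pattern, and a match need not be an AP-1 or BATF motif. The Prdm1 window held TGANTCA, as TGAATCA, at -48, GCGTG at -109 and -77 and CCAAT at -31. Each position is that of the first base as written, counted from the start. Bcl6 held GGGCGG at -41 and, in the bases after the start, at 39. Nfil3 held 9 matches to GGGCGG, of which those at -162, -157, -152 and -147 overlapped each other, with AGGTCA at -12 and a CCAAT at -77 that overlapped the GC box at -73. In the Pparg window GCGTG stood at -242 and -8, AGGTCA at -28 and GGGCGG at -177, and in the Rora window GCGTG at -167 and CCAAT at 7. A match is a description of letters and not a binding site.

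Accessible regions were most numerous at Rora and densest at Bcl6 and Nfil3. Rora is a long gene (735 kb), and the mean number of peaks in its window exceeded that of 99.97% of protein-coding genes. Per 100 kb of window it had 4.35 peaks, against a median of 3.63 over all 21887 genes and of 5.23 over the 16246 with a peak in any library. Bcl6 had 14.1 and Nfil3 14.0 peaks per 100 kb, more than 95.3% and 95.2% of all 21887 genes, and Prdm1 had 8.38, more than 80.3%. The window of Maf (5.64) was near the middle, and those of Ahr (2.34) and Pparg (0.557) were below both medians.

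Fewer peaks were listed in KO than in WT libraries at most of the 7 genes, as across the genome. Values are given for WT replicates 2, 4 and 6 and then for KO replicates 1, 2 and 4. Prdm1 had 12, 10 and 10 peaks in WT and 8, 7 and 9 in KO (10.7 ± 1.15 against 8 ± 1, SD, n = 3 each), and the groups did not overlap. At Rora the lists held 37, 35 and 36 peaks in WT and 29, 29 and 31 in KO (36 ± 1 against 29.7 ± 1.15), again without overlap. The exact permutation test (two-sided, 20 assignments) gave p = 0.1 for both genes, the smallest p that 3 against 3 libraries allow. Thus at 2 of the 7 genes each KO library had fewer peaks than each WT library, against 15.5% of 16246 protein-coding genes with a peak, and 0 had more, against 0.388%. The count of 2 became 4 without WT replicate 6, and the count of 0 became 1 without KO replicate 1 or without KO replicate 4. For these alternatives no share over all genes is given.

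**Figure D1:**
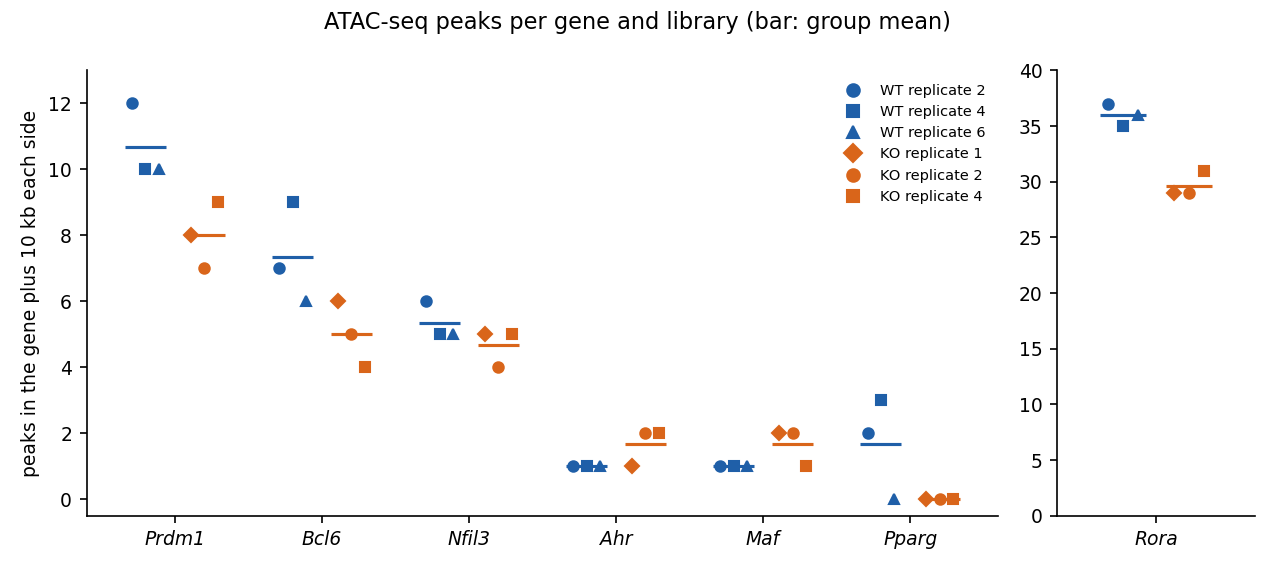
Number of ATAC-seq peaks (y axis) in each gene plus 10 kb on either side, by gene (x axis), with 1 point per library, blue for WT and orange for KO, and a bar at the mean of 3 libraries. Rora has its own panel and scale. All WT points lie above all KO points at Prdm1 (10 to 12 against 7 to 9) and Rora (35 to 37 against 29 to 31).

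The other genes overlapped between the genotypes. Bcl6 had 7, 9 and 6 peaks in WT and 6, 5 and 4 in KO (exact permutation p = 0.2), and WT replicate 6 equalled KO replicate 1. Nfil3 had 6, 5 and 5 against 5, 4 and 5 (exact permutation p = 0.6). Ahr had 1 peak in each WT library and 1, 2 and 2 in KO, and Maf 1 in each WT library and 2, 2 and 1 in KO (exact permutation p = 0.4 for both). At Maf the lists of KO replicates 1 and 2 held 2 peaks inside the stretch that formed 1 peak in the other libraries. At Ahr the same was seen in KO replicate 2, while KO replicate 4 had a separate peak of 211 bp at chr12:35532224-35532434. Pparg, the fat Treg receptor gene, had 2, 3 and 0 peaks in WT and 0 in each KO library (exact permutation p = 0.4).

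Set against list length, the difference turned round at Rora and Nfil3 and kept its direction at the other genes. Per 10000 peaks of its list, Prdm1 had 1.98 ± 0.244 peaks in WT and 1.96 ± 0.129 in KO, and Rora 6.67 ± 0.367 and 7.29 ± 0.473 (SD, n = 3 each), and both overlapped. On this scale 0 of the 7 genes were lower in every KO library, against 7.6% of genes. Ahr and Maf were higher in every KO library (0.413 ± 0.158 against 0.185 ± 0.00568, and 0.414 ± 0.159 against 0.185 ± 0.00568), against 31% of genes. KO replicate 1 at Ahr and KO replicate 4 at Maf had 1 peak, as each WT library had, in a shorter list. The 7 genes together had 66, 64 and 59 peaks in WT and 51, 49 and 52 in KO, a ratio of means of 0.804, and 11.7 ± 0.644 and 12.4 ± 0.612 per 10000 peaks. Their peaks covered 36.7 ± 0.934 kb in WT and 26.4 ± 3.46 kb in KO.

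Most open sites were shared by the genotypes. Of the 70 regions, 37 (52.9%) were called in all 6 libraries, against 45.4% of all regions of the genome. All 3 WT libraries shared 51 of them, of which 37 (72.5%) had a call in each KO library, against 67.6% across the genome, and 13 in some of them. At Maf and Ahr the region shared by the WT libraries was present in each KO library too, and the counts were 7 of 9 at Prdm1, 4 of 6 at Bcl6, 20 of 29 at Rora and 4 of 5 at Nfil3. Another 12 regions were called in 1 or 2 WT libraries and no KO library, 4 in some of both, and 3 in KO libraries alone, 2 of them at Rora and 1 at Ahr. Across the genome these kinds made up 20.9%, 8.76% and 3.17% of 64817 regions. No region was shared by the 3 KO libraries and missing from WT.

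A single region was shared by the 3 WT libraries and missing from each KO library, against 6.95% of the 43512 regions of the genome that the WT libraries shared. It lay inside Prdm1 at its upstream end, at chr10:44527016-44527550. Its pileup, the number of extended tags over the summit, was 27, 25 and 23, which is 0.964, 0.926 and 0.793 times the median peak of each list. The count of 1 rose to 2 without WT replicate 2, 7 without WT replicate 6, 4 without KO replicate 1, 3 without KO replicate 2 and 2 without KO replicate 4. It was 0 in lists cut to an equal length of 37266 peaks. For these alternatives no share over all regions is given.

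Several sites that dropped out of KO lists were tall in pileup, and some of these were low in fold over the local background. A site is called by its height over that background, which was above the list median at 6 of the 7 genes. The median background under the peaks was 16.7, 17.0 and 16.9 tags at Bcl6 in WT, 13.7, 15.7 and 14.7 at Maf, and 13.4, 15.4 and 13.1 at Nfil3, where the medians of the whole lists were 3.42, 3.2 and 3.56. Prdm1 had 8.2, 6.85 and 8.36, Ahr 9.1, 10.2 and 9.42, Rora 5.1, 4.92 and 5.2, and Pparg, in 2 WT libraries, 1.42 and 1.38. In KO libraries Bcl6 had 6.38, 5.86 and 7.45 against list medians of 2.24, 1.52 and 2.88. Of the 14 regions of the 7 genes called in all 3 WT but not all 3 KO libraries, 8 (57.1%) were taller in WT than the list median, against 18.3% of 14093 such regions over the genome. Their median WT background was 6.94 tags, against 2.17 tags. Whether the background had a part in the missing KO calls was not tested.

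Bcl6, the follicular repressor gene, had regions of this kind. That at chr16:23984709-23985222, inside the gene, had heights of 2, 2.15 and 1.97 list medians in WT and 1.85 in KO replicate 1, and was not called in KO replicates 2 and 4. Its fold over background was 2.27, 2.19 and 2.28 in WT, below the list medians of 6.32, 6.21 and 6.19, and its peak p-value ranked at the 17.5th, 19.8th and 19.4th percentiles of those lists, counted from the weakest peak. Upstream, the region at chr16:23991268-23991753, which overlaps the gene Gm31527, had 2.21, 2.11 and 2.07 in WT and 1.62 in KO replicate 2 alone. Its folds were 3.57, 3.22 and 3.40 in WT. A further region inside the gene at chr16:23984297-23984611 had 2.11 and 2.52 in WT replicates 2 and 4, at folds of 2.53 and 2.71, and was absent from the list of WT replicate 6 as well as from every KO list. At Nfil3 the region across the upstream gene end (chr13:52982769-52983141) had 1.89, 2.15 and 2 in WT, 1.85 and 1.09 in KO replicates 1 and 4, and no call in KO replicate 2.

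**Figure D2:**
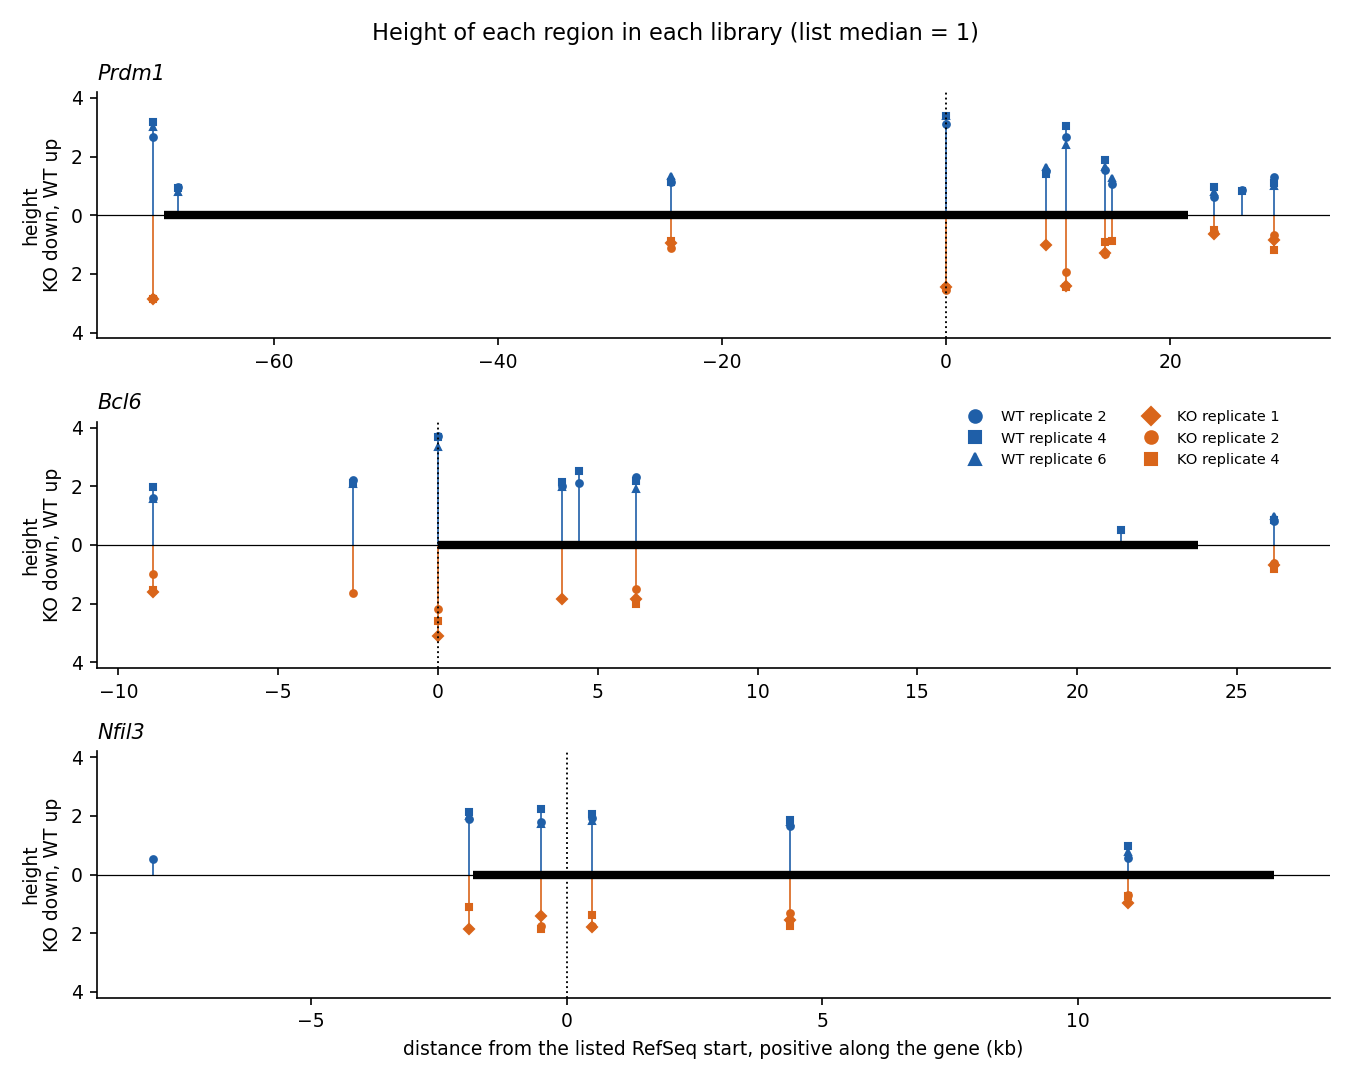
Height of each region (y axis, in multiples of the list median, WT upward in blue and KO downward in orange, 1 marker per library with a call) against distance in kb from the listed RefSeq start (dotted line), with the gene as a black bar, for Prdm1, Bcl6 and Nfil3. The starts of Prdm1 and Bcl6 carry tall regions in all 6 libraries, and at Bcl6 regions about as tall as 2 list medians lack some or all KO markers.

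The heights of the 37 regions called everywhere were compared as log2 of the pileup over a library scale. Scaled to the median pileup of each list (28, 27 and 29 tags in WT, 20, 16 and 23 in KO), all 29419 such regions of the genome shifted by a median of -0.32 (KO minus WT, log2). Scaled to the median pileup over those same 29419 regions (45, 47 and 47, and 27, 20 and 30 tags), the median was 0.03. Changes at single genes are therefore read against these medians, and the scale is named with each value.

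By list scaling, 12 of the 37 regions were lower in KO and 0 higher (limma, Benjamini-Hochberg adjusted p under 0.05 over 29419 regions), against 34.6% and 0.0374% of all regions. An unadjusted p under 0.05 was found for 17 of the 37, against 49.3% of all regions. The median difference was -0.31, close to the genome's -0.32. The 12 were 8 at Rora, 2 at Prdm1, 1 at Bcl6 and 1 at Maf. Leaving out a WT library gave 6 (without replicate 2), 5 (without replicate 4) or 5 (without replicate 6), and 7 were left without KO replicate 4. The lower calls over all 29419 regions fell as well, from 10186 to 6291, 2975, 5733 and 7852 in these fits. By shared-region scaling 0 of the 37 regions were lower and 0 higher in limma, against 0.323% and 2.1% of all regions, and 3 had an unadjusted p under 0.05, against 16.5%. Their median difference was 0.04, beside 0.03 for the genome. Without KO replicate 4 there were 2 calls, both higher in KO, at Rora (chr9:69034009-69035089, adjusted p = 0.0245 in limma, and chr9:69349103-69349950, adjusted p = 0.0444). These 2 calls are given without the share of all regions called in that fit.

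**Figure D3:**
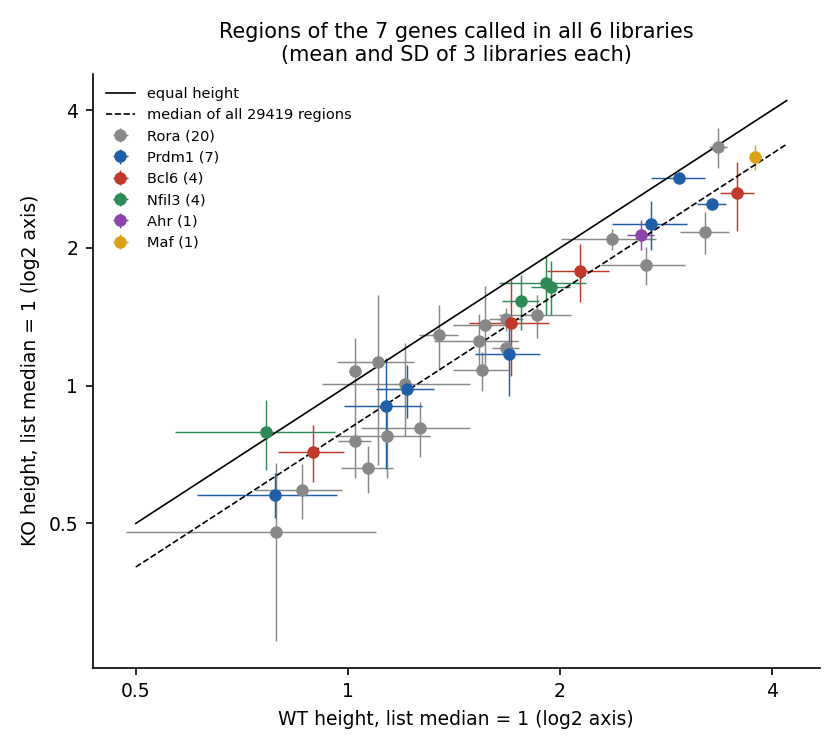
Mean height in KO (y axis) against mean height in WT (x axis), both in multiples of the list median on log2 axes, for the 37 regions of the 7 genes called in all 6 libraries, with bars of 1 SD over 3 libraries. The solid line marks equal heights and the dashed line the median shift of all 29419 regions (-0.32, log2). The points of Prdm1, Bcl6 and Rora lie on both sides of the dashed line, and those of Nfil3, Ahr and Maf above it.

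Among the repressor genes, Prdm1 was open at its promoter and just beyond its upstream end. The promoter region (chr10:44458244-44459278) had heights of 3.11, 3.37 and 3.38 list medians in WT and 2.45, 2.56 and 2.48 in KO, without overlap. Its list-scaled difference was -0.40 ± 0.11 (log2, SE, limma adjusted p = 0.00766) and its shared-scaled difference -0.05 ± 0.11 (adjusted p = 0.874). The tallest region by its mean, 0.449 kb beyond the gene's upstream end (chr10:44529007-44529987), had 2.68, 3.19 and 3 in WT and 2.85, 2.81 and 2.87 in KO, and the groups overlapped. It differed by -0.05 ± 0.11 on the list scale (limma adjusted p = 0.705) and by 0.30 ± 0.10 on the shared scale (adjusted p = 0.114), where every KO library exceeded every WT library. These 2 regions of Prdm1 thus stood on opposite sides of the genome's median on the shared scale, and neither passed the test there.

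Over the 7 Prdm1 regions called everywhere, the mean log2 height was 0.70, 0.89 and 0.77 in WT and 0.50, 0.43 and 0.44 in KO on the list scale. With shared scaling it was 0.02, 0.09 and 0.08 in WT and 0.07, 0.11 and 0.06 in KO, and the groups overlapped. A further region inside the gene, at chr10:44444413-44444774, had 1.54, 1.89 and 1.66 list medians in WT and 1.3, 1.31 and 0.913 in KO (list-scaled -0.54 ± 0.18, limma adjusted p = 0.0195). That call was lost in 3 of the 6 fits that left out a library, with an adjusted p of up to 0.117.

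At Bcl6 the region over the promoter (chr16:23988481-23989237, also overlapping Gm31527) was the tallest. It had 3.71, 3.67 and 3.34 list medians in WT and 3.1, 2.19 and 2.61 in KO, with every KO library below every WT library. The list-scaled difference was -0.45 ± 0.11 (limma adjusted p = 0.00401) and the shared-scaled one -0.11 ± 0.11 (adjusted p = 0.664). The list-scaled call stood in all 6 fits that left out a library, with adjusted p of 0.0011 to 0.0365. Over the 4 regions of Bcl6 called everywhere the mean log2 height was 0.88, 0.94 and 0.82 in WT and 0.67, 0.26 and 0.68 in KO (list scale). KO replicate 2, the shallowest library, was the lowest. With shared scaling the values were 0.19, 0.14 and 0.13 in WT and 0.24, -0.06 and 0.30 in KO, with 2 KO libraries above and 1 below all of WT.

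At Rora, the nuclear receptor gene, the 20 regions called everywhere differed among themselves. They lay inside the gene except for 1, which lay 9.35 kb beyond its end and overlapped the gene Ice2. The tallest (chr9:69034009-69035089) had 3.25, 3.37 and 3.45 list medians in WT and 3.7, 3.19 and 3.09 in KO, and the groups overlapped. Its difference was -0.02 ± 0.10 on the list scale (limma adjusted p = 0.892) and 0.33 ± 0.10 on the shared scale (adjusted p = 0.0557), the lowest shared-scale p of the 37 regions. A second tall region (chr9:69289295-69291326) went the other way, with 3.11, 3.52 and 3.03 in WT and 2.35, 2.25 and 1.91 in KO. This region had the lowest list-scale p of the 37, at -0.57 ± 0.12 (limma adjusted p = 0.00122), and on the shared scale it was lower by -0.22 ± 0.11 (adjusted p = 0.307), still without overlap. Its list-scaled call stood in all 6 fits that left out a library.

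Other Rora regions lay on both sides of the genome's median. The region at chr9:69397591-69398868, 9.35 kb beyond Rora and overlapping the neighbouring gene Ice2, was counted at Rora by position alone. It had 2.93, 2.78 and 2.24 in WT and 1.85, 2 and 1.65 in KO. It differed by -0.53 ± 0.13 on the list scale (limma adjusted p = 0.00443, called in all 6 fits without a library) and -0.18 ± 0.13 on the shared scale (adjusted p = 0.516). The region at chr9:68884429-68885204, which overlaps Gm31262, had 1, 1.04 and 1.17 in WT and 0.75, 0.625 and 0.609 in KO. Its differences were -0.70 ± 0.22 (limma adjusted p = 0.0159) and -0.35 ± 0.22 (adjusted p = 0.428), and the groups did not overlap on either scale. By contrast, at chr9:68932473-68933229 the heights were 1.04, 1 and 1.03 in WT and 1.1, 0.875 and 1.26 in KO, with differences of 0.06 ± 0.20 (limma adjusted p = 0.814) and 0.41 ± 0.20 (adjusted p = 0.291). Across the 20 regions the shared-scaled difference ran from -0.40 to 0.41 with a median of -0.07.

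**Figure D4:**
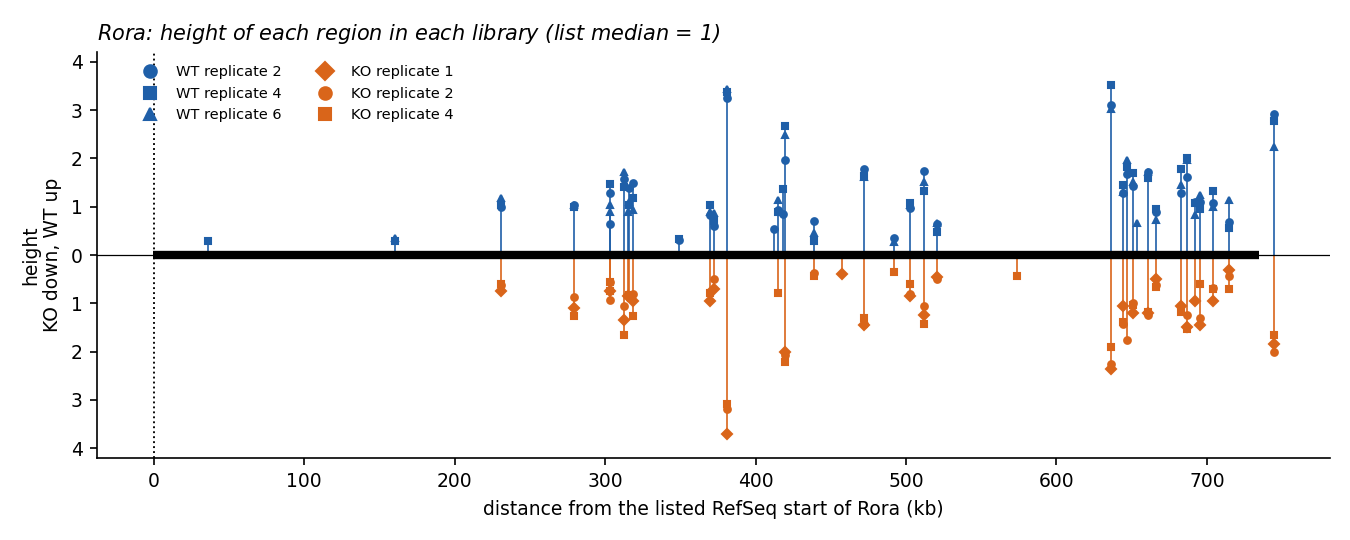
Height of each Rora region (y axis, in multiples of the list median, WT upward in blue and KO downward in orange, 1 marker per library with a call) against distance in kb from the listed RefSeq start (dotted line), with the gene as a black bar. No marker stands at the start, and the tall regions of both genotypes lie far inside the gene or beyond its end.

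Averaged over its 20 regions, Rora had a mean log2 height of 0.55, 0.57 and 0.55 in WT and 0.21, 0.16 and 0.19 in KO on the list scale. On the shared scale these became -0.14, -0.23 and -0.15 in WT and -0.22, -0.16 and -0.19 in KO, and the groups overlapped. The regions of Rora were low for regions called everywhere: the mean height exceeded that of 24.5% of the 14328 genes with such a region. Pparg, the other nuclear receptor gene, had no region that could be compared. Its regions at chr6:115361100-115361942 and chr6:115480152-115480665 had pileups of 10 and 14 and of 11 and 12 in WT replicates 2 and 4, at most 0.519 list medians. Absence from a list means no call at that depth and is no measure of closed chromatin.

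Maf and Ahr each had 1 wide region across the higher-coordinate end of the gene. That of Maf (chr8:115706508-115708510) was the tallest of the 37, with 3.75, 3.78 and 3.83 list medians in WT and 3.25, 2.94 and 3.3 in KO. Every KO library was below every WT library, and the list-scaled difference was -0.26 ± 0.10 (limma adjusted p = 0.0385), a call that was lost in 4 of the 6 fits without a library, with an adjusted p of up to 0.13. On the shared scale the difference was 0.09 ± 0.09 (adjusted p = 0.701), with overlap, so its direction depended on the scale. The height of Maf exceeded that of 88.3% of the 14328 genes. The Ahr region (chr12:35534025-35535402) had 2.54, 2.74 and 2.55 in WT and 2.1, 2.31 and 2 in KO, with differences of -0.29 ± 0.12 (limma adjusted p = 0.0598) and 0.06 ± 0.12 (adjusted p = 0.862). It was taller than in 65.6% of genes.

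Nfil3, the leucine zipper repressor gene, had the largest shared-scale difference of the 6 genes that could be compared. Its tallest region (chr13:52980240-52980831) had 1.93, 2.07 and 1.83 list medians in WT and 1.8, 1.75 and 1.39 in KO. The neighbouring promoter region (chr13:52980974-52982095) had 1.79, 2.22 and 1.72 in WT and 1.4, 1.75 and 1.87 in KO, with overlap. Over its 4 regions called everywhere, the mean log2 height on the list scale was 0.42, 0.76 and 0.52 in WT and 0.47, 0.37 and 0.44 in KO, which overlapped (difference -0.14, exact permutation p = 0.3). With shared scaling it was -0.26, -0.04 and -0.17 in WT and 0.04, 0.04 and 0.05 in KO, without overlap (difference 0.20, exact permutation p = 0.1, the smallest possible). A weak Nfil3 region near the far end (chr13:52969777-52970341) had 0.571, 0.963 and 0.759 list medians in WT and 0.95, 0.688 and 0.739 in KO, and differed by 0.07 ± 0.24 on the list scale (limma adjusted p = 0.813) and 0.42 ± 0.23 on the shared scale (adjusted p = 0.359). The direction for Nfil3 thus turned with the scale, and no single region of it passed limma on either.

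Per gene, 5 of the 6 genes with a shared region (all but Nfil3) had a lower mean height in every KO library on the list scale, against 68.6% of 14328 genes, and 0 a higher one, against 0.0628%. Their differences were -0.33 for Prdm1, -0.34 for Bcl6, -0.37 for Rora, -0.29 for Ahr and -0.26 for Maf (exact permutation p = 0.1 each). On the shared scale 0 were lower in every KO library, against 6.9%, and 1, Nfil3, was higher, against 17.9%. There the differences were 0.01 for Prdm1, 0.00428 for Bcl6, -0.02 for Rora, 0.06 for Ahr and 0.09 for Maf, with exact permutation p from 0.2 to 1.

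**Figure D5:**
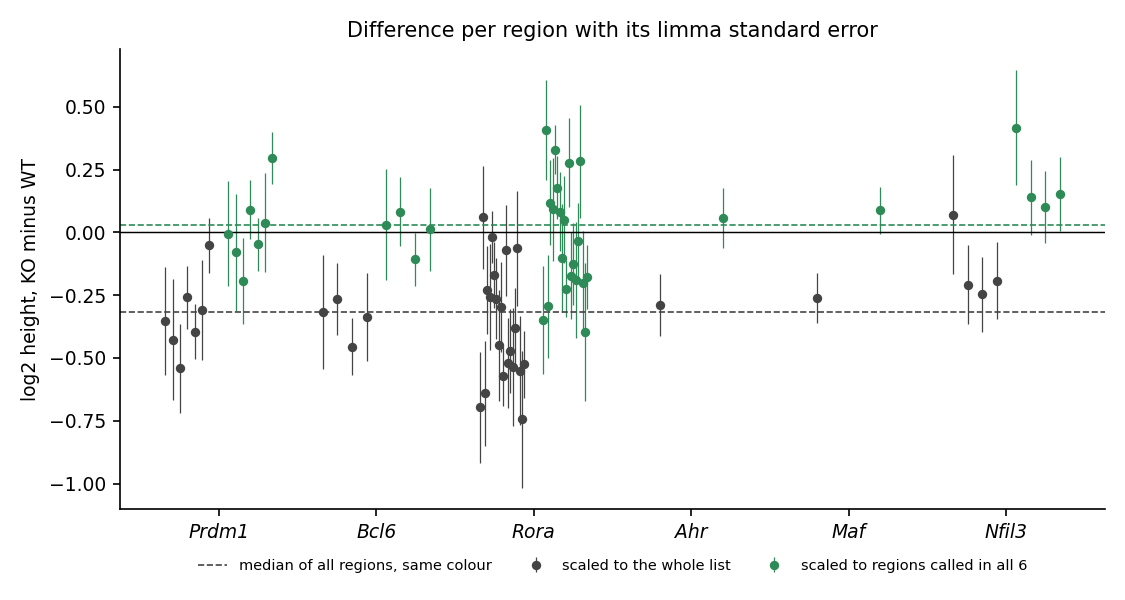
Difference in log2 height between KO and WT (y axis) for each of the 37 regions by gene (x axis), with bars of 1 limma standard error, on the list scale (grey) and the shared scale (green), and dashed lines at the medians of all 29419 regions. The grey points lie around -0.32 and the green points around 0.03.

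By likeness of height over the 6 libraries, the nearest of 4728 genes with at least 3 shared regions was Fyn for Prdm1 (Euclidean distance 0.0705 in log2 list-scaled height) and Lemd2 for Rora (0.0677). It was Nans for Bcl6 (0.11), Taok3 for Ahr (0.104), Qrich1 for Maf (0.0898) and Cilk1 for Nfil3 (0.132). None of these genes shared a region with the gene it resembled.

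The partners and targets of the 7 factors were open in both genotypes too. All 10 partner genes, among them Arnt, the dimer partner of the aryl hydrocarbon receptor, had peaks in all 6 libraries, as had 23 of 24 targets and effector or tissue Treg genes. The remaining gene, Cd36, a fatty acid transporter gene and PPARγ target, had 0 peaks in each. Of all 21887 protein-coding genes, 16246 had a peak in at least 1 library, and 14328 had a region called in all 6. The first is a looser and the second a stricter measure than a peak in each library, for which no share over all genes is given. On the list scale, 15 of 39 partner regions and 23 of 62 target regions were lower in KO and 0 higher (limma), against 34.6% and 0.0374% of all regions, with medians of -0.34 and -0.33 beside -0.32 for the genome. On the shared scale 0 of either list were called in either direction, with medians of 0.01 and 0.02 beside 0.03. Of the marker lists of other cells, 1 region was called on that scale. It was 1 of the 6 regions of the melanoma list, against 2.1% of all regions called higher in KO. By position it was assigned to Pmel (chr10:128695637-128696866, 0.39 ± 0.08, limma adjusted p = 0.00675, higher in KO). Whether it overlaps a neighbouring gene was not recorded, so it need not belong to Pmel. On the list scale its difference was 0.05 (limma adjusted p = 0.658). On the shared scale, an unadjusted limma p under 0.05 was found for 7 of 39 partner regions and 7 of 62 target regions, against 16.5% of all regions. The lowest shared-scale p among both lists belonged to a region of Irf4 (0.38 ± 0.12, limma adjusted p = 0.0695), a partner of BATF. Other regions with a low p lay at Areg (-0.45 ± 0.16, limma adjusted p = 0.111), the gene of the repair factor amphiregulin, Ctla4 (0.27 ± 0.10, adjusted p = 0.117), an inhibitory receptor gene, and Rxrb (-0.28 ± 0.11, adjusted p = 0.16), which encodes a dimer partner of PPARγ.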

How the data were processed

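ATAC-seq peak lists of 6 libraries, 3 WT and 3 KO by the titles, were analysed. Per the file headers, the authors called peaks on each library alone with MACS 2.1.1.20160309, without a control, at a q-value of 0.05, with a tag shift of -100 bp, an extension to 200 bp, 1 tag kept per position and a local background window of 10000 bp. Per the submitters' processing notes, Bowtie2 2.3.1 and Picard 1.88 were among the tools and mm10 was the build. The deposited pileup is a signal, the tag coverage at a summit, not scaled to depth, so a deeper library gives higher pileups and can call weaker sites. The deposited fold enrichment is a ratio of pileup to local background, each plus 1, from which the background was recovered. The deposited −log10 q-value set the stricter threshold (at least 5), and the deposited −log10 p-value was not tested.

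Peaks overlapping by at least 1 bp were merged. A region's height was the library's highest pileup there over the median pileup of its list. The 29419 regions called in all 6 libraries were compared with limma 3.58.1 (lmFit, eBayes with trend, R 4.3.3) on log2 heights, with Benjamini-Hochberg adjustment over all of them, and counts and means per gene with two-sided exact permutation tests. The fit was tested on simulated data. Values were positive, so no pseudocount was used. Depth is the number of tags after filtering, per the file headers. Other steps used pandas 2.3.3, NumPy 2.4.6 and SciPy 1.17.1 under Python 3.11.15, and Matplotlib 3.10.9.

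The members and gene lists were chosen with earlier results of these data known. The text names all 7 genes, the tallest region of each called in all 6 libraries, regions called in all 3 libraries of 1 genotype and none of the other, the 5 regions with the lowest limma p (on each scale), the nearest gene by height pattern and up to 5 list genes by lowest limma p on the shared scale. A list gene that this rule would name is not reported here. Other regions named were chosen after their values were seen: those over promoters, at Pparg, the tall ones lacking KO calls, those called by limma with a library left out, the KO replicate 4 peak at Ahr and the lower Prdm1 region. Alternatives were other scalings (shared regions, tags), mean pileup, a stricter threshold, lists cut to 37266 peaks, flanks of 0 or 50 kb, windows of 200 bp, counts per 10000 peaks, a replicate block and leaving out each library. The leave-one-out and block fits with shared-region scaling were added after seeing the data.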

Additional observations from a re-analysis of the deposited data

How the results depend on the processing

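The direction of heights depended on the scale. Of the 37 shared regions, 12 were lower in KO by list scaling and 0 by scaling to shared regions or to tags. Over all 29419 regions the lower calls numbered 10186 by list scaling, 95 by shared-region scaling and 1 by tags. With tags, 0 calls at the 37 regions therefore says little about these genes. The median difference of the 37 regions, -0.31, became 0.0392 with shared regions and 0.0615 with tags. Leaving out a library gave 5 to 11 of the 37 regions lower by list scaling, beside 2975 to 10401 of all regions. With shared-region scaling it gave 0 to 2 calls in place of 0. Genes with a lower mean height in every KO library numbered 5, and 0 with either other scaling, while 1 was higher with shared regions. The gene differences reversed to 0.0141 (shared regions) and 0.0365 (tags) for Prdm1, 0.00428 and 0.0267 for Bcl6, 0.0580 and 0.0804 for Ahr, 0.0870 and 0.109 for Maf, and 0.203 and 0.226 for Nfil3. In these cases the cause was not tested.

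Genes with fewer peaks in every KO library numbered 2, with 4 at the stricter threshold, 0 in equal-length lists, 1 in gene spans alone, 5 with 50 kb flanks, 0 per 10000 peaks and 2 to 4 without a library. Genes with more peaks numbered 0, with 2 per 10000 peaks and 0 to 1 without a library. The difference reversed at Maf to -0.667 in the gene span and -1 with 50 kb flanks, at Ahr to -2 with 50 kb flanks, and per 10000 peaks to 0.618 at Rora and 0.152 at Nfil3. The 12.3 fewer peaks of the 7 genes together (a mean difference of -12.3) became -0.333 in equal-length lists. Regions called in every WT and no KO library numbered 1, with 3 at the stricter threshold, 0 in equal-length lists and 1 to 7 without a library. Apart from the main lists and the counts per 10000 peaks, these counts have no share over all genes or regions beside them.

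Replicate numbers 2 and 4 occur in both genotypes, but the labels do not say that they pair libraries, and the deviations of same-numbered libraries correlated at -0.0208 and -0.0519. The replicate block used only libraries 2 and 4 of each genotype and so left out WT replicate 6 and KO replicate 1. With the block, a gene was counted when KO was below WT in each same-numbered pair. That condition is easier to meet than every KO library lying below every WT library, as in the main counts. By it 4 genes had fewer peaks in KO and 6 a lower mean height, where the main counts were 2 and 5. The shared-region fit with the block still made 0 calls at the 37 regions. Leaving out WT replicate 6 alone also gave 4 genes with fewer peaks. The block, its easier condition and the smaller number of libraries therefore cannot be told apart. Depth limits every absence, since the shallowest library held 4.72 M (mega) tags, and heights in regions called in all 6 libraries leave out sites lost from any of them.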
